A study of Mus musculus with 6 samples.

Results

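The genes described here encode receptor chains for interleukins 4, 10, 15 and 17, with the ligands interleukin-10 and interleukin-15. They were taken by symbol from the deposited tables: Il4ra, Il13ra1, Il10ra, Il10rb, Il10, Il15, Il15ra, Il2rg, Il17ra and Il17rc, 10 genes of 23183, and all 10 had a value in every library. Lung RNA from mice of C57BL/6 background was sequenced in 6 libraries, 3 made after saline was instilled into the trachea and 3 after lipopolysaccharide (LPS), the Gram-negative cell wall component used to provoke acute lung inflammation, was given by the same route. The sources used here state neither age nor LPS dose nor the time after instillation. The titles name wild-type mice throughout, and the genotype field agrees for saline; for LPS 1 and LPS 2 that field reads LCN2-/- and for LPS 3 LCN4-/-, so under that field every difference between the groups would be one of treatment and genotype at once, which cannot be told apart. Lcn2 itself, which encodes lipocalin-2, stood at 13.60, 13.29 and 13.82 in LPS 1 to 3 and at 8.20, 11.28 and 10.11 in saline, so its RNA goes against the LCN2-/- label of LPS 1 and LPS 2. The labels do not say whether each library is a separate animal; p-values therefore reflect only the spread among these libraries, which may be technical.

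Cytokine receptors of these families work as pairs or trios of chains. IL-4 binds the chain encoded by Il4ra, which joins either the common gamma chain (Il2rg) on leukocytes or the IL-13 receptor chain (Il13ra1) on epithelium, stromal cells and macrophages, and signals through STAT6. IL-10 binds IL-10RA, found mainly on leukocytes, which pairs with the broadly expressed IL-10RB and signals through STAT3 to restrain macrophage inflammation. IL-15 is held on the producing cell by IL-15RA and presented to neighbouring natural killer and memory T cells, which respond through IL-2RB and the common gamma chain. IL-17A and IL-17F act through IL-17RA with IL-17RC on epithelium and fibroblasts, where they induce neutrophil-attracting chemokines and lipocalin-2.

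Levels are the deposited values, log2(expression value + 1). A difference is the LPS mean minus the saline mean on that scale, which understates the change of genes with low values. The unlogged values appear to be divided by gene length: low ones multiplied by exon length gathered at even steps, with 148 to 204 genes per library at 0.7 to 1.4 times the first step, 4 to 7 genes at 1.4 to 1.6 times and 79 to 107 genes at 1.6 to 2.4 times. If a step is 1 sequenced fragment, it stands at 0.0429 to 0.0617 for a gene with 1 kb of exon. The sources state no depth, so no count-based interval is printed. Values above 0 but under 0.01 numbered 1505 to 1936 in saline libraries and 11 to 24 in LPS libraries. Values of exactly 0 numbered 3869 in each saline library and 6097, 6223 and 5117 in LPS 1 to 3. Why the saline libraries share 1 count was not tested. The tables of the groups may thus have been made differently, which cannot be told apart from treatment. The lung markers fixed for the epithelium were present in every library. Sftpc stood at 13.85 to 14.00 in saline and 13.46 to 13.60 in LPS, and Scgb1a1 at 15.90 to 16.58 and 17.19 to 17.32. The summed value of the 5 epithelial markers before the log was 79500 to 117000 in saline and 163000 to 179000 in LPS. The summed values before the log of 6 neutrophil markers were 650 to 1950 in saline and 9680 to 25100 in LPS, and those of 5 B cell markers 197 to 305 in saline and 35.1 to 55.6 in LPS. Of the neutrophil markers 5 of 6 passed the test as higher, and of the B cell markers 5 of 5 as lower. Of 7 monocyte and macrophage markers 6 were higher, among them Itgam (2.78) and Ccr2 (1.53), and 1, the abundant Lyz2, lower, so that their summed value was 3560 to 5150 in saline and 2310 to 2560 in LPS. When library sums were made equal, the median difference of this list went from 0.90 to 0.15. Itgam was then 2.02, Ccr2 0.75, Adgre1 0.15, Cd68 0.09 and Csf1r -0.13. The medians of the neutrophil and B cell lists were then 2.09 and -3.10. Lower in LPS were also 4 of 4 heart muscle markers (summed value 182 to 1600 in saline, 30.4 to 120 in LPS). So were 2 of 4 endothelial markers, 2 of 4 fibroblast markers and 2 of 5 T cell markers. Among 5 epithelial markers the surfactant gene Sftpb (-1.60) was lower, Epcam was higher and 3 did not pass. Epcam stood at 4.93, 5.28 and 5.13 in saline and at 6.16, 6.11 and 6.07 in LPS. The 5 alveolar macrophage markers were mixed, with Siglecf (-1.63) and Ear1 (-2.14) lower, Chil3 (0.55) higher and 2 not passing. Siglecf was under a value of 1 before the log in each LPS library (0.41, 0.79 and 0.72 on the log2 scale). The filter on low values was thus passed only through its saline values, which favours a fall. No marker of any of these lists was at 0 in any library. The part of this change in cell make-up in the receptor results was not tested, and in whole lung fewer cells of a type and less RNA per cell cannot be told apart.

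Promoter sequences were at hand for 5 of the 10 genes (RefSeq, GRCm38.p6, the build also called mm10). The 250 bases before the transcription start are shown, 5′ to 3′ on the gene's strand, for the 3 of these genes that were higher in LPS: Il4ra at chr7:125552021-125552270 (plus strand), Il13ra1 at chrX:36111858-36112107 (plus strand) and the second of the starts listed for Il15ra at chr2:11705462-11705711 (plus strand). Capitals mark matches to the motifs searched. The starts are those listed by RefSeq. By the GENCODE gene positions given below, all of the Il15ra stretch and part of the Il4ra stretch lie inside the gene.

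Il4ra: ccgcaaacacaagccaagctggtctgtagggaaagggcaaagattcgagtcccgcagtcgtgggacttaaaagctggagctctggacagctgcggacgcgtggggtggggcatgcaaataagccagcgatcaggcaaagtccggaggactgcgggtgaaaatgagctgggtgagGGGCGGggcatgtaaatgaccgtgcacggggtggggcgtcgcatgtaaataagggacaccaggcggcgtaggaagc
Il13ra1: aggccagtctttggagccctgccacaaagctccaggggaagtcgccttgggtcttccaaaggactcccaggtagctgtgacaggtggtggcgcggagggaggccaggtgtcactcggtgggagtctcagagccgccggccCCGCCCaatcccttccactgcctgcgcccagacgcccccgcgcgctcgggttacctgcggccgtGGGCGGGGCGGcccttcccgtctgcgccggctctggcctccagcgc
Il15ra: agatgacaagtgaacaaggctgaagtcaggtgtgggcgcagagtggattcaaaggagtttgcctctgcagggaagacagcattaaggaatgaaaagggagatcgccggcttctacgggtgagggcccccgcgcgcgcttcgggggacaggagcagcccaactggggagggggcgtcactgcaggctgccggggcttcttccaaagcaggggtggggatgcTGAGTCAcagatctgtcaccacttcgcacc

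The motifs were the SP1 box GGGCGG, the AP-1 site TGANTCA, the STAT site TTCNNNGAA, the IRF half-site pair GAAANNGAA and the NF-kB consensus (the kappaB site), each on both strands of 300 bases reaching 50 past the start. The Il4ra window held an SP1 box 76 bases before the start and, 20 bases after the start and outside the stretch printed, the NF-kB match GGAAAGCCCC. The Il13ra1 window held SP1 boxes 110, 46 and 41 bases before the start, and these last overlap by 1 base. The Il15ra window shown held an AP-1 site 30 bases before the start, and, 30 bases after the start and outside the stretch printed, the IRF match GAAAGCGAA. The window of its other listed start held an IRF match 149 bases before that start and an SP1 box 32 bases after it. Of all 32851 promoter windows, 35.7% held the SP1 box, 7.81% the AP-1 site, 8.46% the NF-kB consensus and 8.56% the IRF letters. The letters of the STAT site, in 8.30% of all windows, were in none of the 6 windows of these genes.

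Of the 10 genes, 6 rose with LPS, each of them a receptor chain, and 0 fell. Il4ra, Il10ra, Il17ra, Il13ra1 and Il10rb rose by 2.24-fold to 2.80-fold and Il15ra by 1.45-fold, whereas Il15, Il2rg and Il17rc did not pass the test and Il10 was too low for the filter on low values. Across all 13116 genes tested, 25.7% were called higher and 24.3% lower, so calls are common in this comparison; 9.26% were called at least 2-fold higher, against 5 of the 9 genes tested here. The median difference of these 9 was 1.17, beside 0.02 over all genes tested. Every LPS value lay above every saline value in 6 of the 9, as it did in 32.7% of all genes tested. The set was chosen with earlier results of these data known. Its counts and median beside those of all genes are therefore descriptive and not independent support. The deposited values are not on equal sums. Before the log, genes with a value in each library summed to 467483 to 552368 in saline libraries and 854330 to 885427 in LPS libraries. When library sums were made equal, the median over all genes became -0.68. Of the 9, 3 (Il4ra, Il10ra and Il13ra1) were then called higher and 1 (Il17rc) lower. Directions and folds are therefore given relative to the scaling as deposited.

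**Figure D1:**
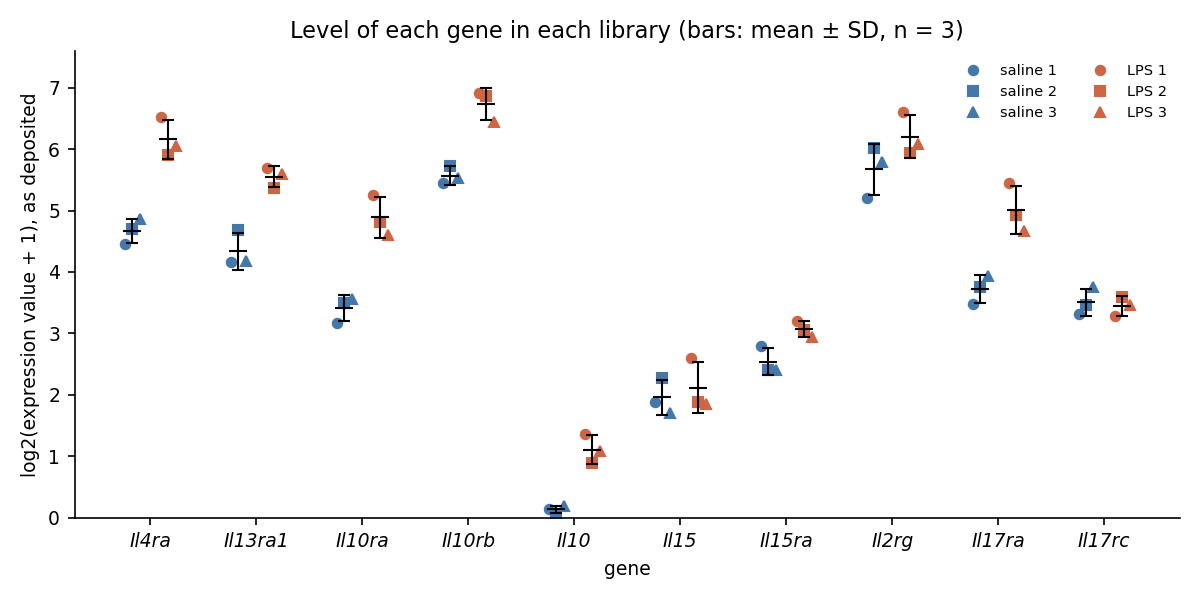
Level of each of the 10 genes, as log2(expression value + 1), in each of 3 saline (blue) and 3 LPS (orange) libraries; the marker shape gives the library number, and black bars are mean ± SD. LPS values lie above all saline values for Il4ra, Il13ra1, Il10ra, Il10rb, Il10, Il15ra and Il17ra, and the groups overlap for Il15, Il2rg and Il17rc.

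Il4ra (chromosome 7, 125552120 to 125579474, mm10) encodes the IL-4 binding chain shared by the IL-4 and IL-13 receptors. Its values were 4.46, 4.70 and 4.86 in saline 1 to 3 and 6.52, 5.90 and 6.05 in LPS 1 to 3. The groups were apart, with LPS 1 highest. Il4ra rose by 1.49 (SE 0.20; limma adjusted p = 0.000468) or 2.80-fold, and 4.35% of the genes tested had a larger difference. Its call held in 16 of 16 alternative settings, with differences of 0.70 (equal sums) to 1.61.

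Il13ra1 (chromosome X, 36112110 to 36171259) encodes the chain that turns IL-4RA into a receptor for IL-13 as well as IL-4. Its values were 4.16, 4.69 and 4.18 in saline and 5.70, 5.37 and 5.59 in LPS. Saline 2 was the highest of its group and still below each LPS library. Il13ra1 rose by 1.21 (SE 0.18; limma adjusted p = 0.000921), and the call held in 16 of 16 settings, at 0.44 with equal sums.

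Il2rg (chromosome X, 101264378 to 101268255) encodes the common gamma chain, which is used by the receptors for interleukins 2, 4, 7, 9, 15 and 21 and is carried mainly by lymphoid and myeloid cells. Its values were 5.21, 6.01 and 5.79 in saline and 6.60, 5.93 and 6.09 in LPS. The groups overlapped, since LPS 2 was below saline 2. The difference of 0.53 (SE 0.25) did not pass (limma adjusted p = 0.0966). It passed in 0 of 16 settings, with values from -0.26 (equal sums) to 0.76.

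Partner chains were therefore compared within each library, where a factor common to the library has little effect on the difference. Il4ra minus Il2rg was -0.75, -1.31 and -0.93 in saline (SD 0.29, n = 3) and -0.08, -0.02 and -0.04 in LPS (mean -0.05 ± 0.03, SD, n = 3), so that Il4ra stood below Il2rg in saline and level with it in LPS. The shift of 0.95 left no overlap between the groups, and the exact two-sided permutation test gave p = 0.1, the smallest that 3 against 3 libraries allow, or 0.233 adjusted over the 7 pairs compared. It was 0.79 to 1.08 in 10 alternative settings. Il4ra minus Il13ra1 was 0.31, 0.01 and 0.67 in saline and 0.82, 0.53 and 0.46 in LPS, groups that overlapped (shift of 0.28; exact permutation p = 0.3, adjusted 0.35).

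Il10ra (chromosome 9, 45253837 to 45269149, minus strand) encodes the IL-10 binding chain that sets which cells respond to IL-10. Its values were 3.17, 3.50 and 3.56 in saline and 5.25, 4.81 and 4.60 in LPS. All LPS libraries were above all saline libraries. Il10ra rose by 1.48 (SE 0.19; limma adjusted p = 0.000462) or 2.78-fold, and its call held in 16 of 16 settings, at 0.72 with equal sums.

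Il10rb (chromosome 16, 91406164 to 91425834) encodes the second chain, which also serves the receptors for IL-22 and type III interferons. Its values were 5.45, 5.73 and 5.53 in saline and 6.92, 6.86 and 6.44 in LPS. The lowest LPS library, LPS 3, was above the highest saline library. Il10rb rose by 1.17 (SE 0.18; limma adjusted p = 0.000967), and with equal sums its difference of 0.38 no longer passed (limma adjusted p = 0.0555). Il10ra minus Il10rb was -2.16 ± 0.16 (SD, n = 3) in saline and -1.85 ± 0.19 (SD, n = 3) in LPS, an overlap in range (shift of 0.31; exact permutation p = 0.2, adjusted 0.35).

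Il10 (chromosome 1, 131019845 to 131024974), the anti-inflammatory ligand made by macrophages and T cells among others, was low in every library. Its values were 0.15, 0.07 and 0.19 in saline and 1.36, 0.90 and 1.08 in LPS. Before the log that is 0.052 to 0.14 in saline and 0.86 to 1.57 in LPS, and on the step of each library it is about 3.34, 1.11 and 3.27 steps against 35.6, 18.7 and 25.6. The groups did not overlap, and the LPS mean was still below the middle of all genes, at percentile 48.5 of the 18699 genes with a value in each library. Since 2 libraries reached the filter's value of 1 and 3 were required, Il10 was tested only in the fit with no filter, where it rose by 0.97 (SE 0.12; limma adjusted p = 0.00724) and 15.9% of 19314 genes were called higher. Il10 minus Il10ra was -3.27 ± 0.22 (SD, n = 3) in saline and -3.77 ± 0.22 (SD, n = 3) in LPS (exact permutation p = 0.1, adjusted 0.233), but that shift of -0.50 became 1.10 with a pseudocount of 0.1, so no direction is given for it.

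Il15 (chromosome 8, 82331632 to 82403222, minus strand), the ligand that keeps natural killer and memory CD8 T cells alive, had values of 1.89, 2.27 and 1.71 in saline and 2.60, 1.89 and 1.86 in LPS. LPS 1 was above all saline libraries, and LPS 2 and LPS 3 lay among them. The difference of 0.16 (SE 0.23) did not pass (limma adjusted p = 0.580) and was -0.44 to 0.45 over 15 alternative settings. In the absence of LPS 1 it was -0.08.

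Il15ra (chromosome 2, 11705290 to 11734317) encodes the chain that presents IL-15. Its values were 2.79, 2.41 and 2.41 in saline and 3.20, 3.06 and 2.95 in LPS, with saline 1 the closest to the LPS group. Il15ra rose by 0.54 (SE 0.16; limma adjusted p = 0.0194), the smallest difference of the 6 that passed. It passed in 10 of 16 alternative settings. It did not pass without saline 3 (0.47; limma adjusted p = 0.0678), without LPS 1 (0.47; 0.0687), without LPS 2 (0.54; 0.0547), without saline 2 and LPS 3 together (0.53; 0.0575) or at a threshold of 0.01, and with equal sums its direction turned, to -0.15. Il15 minus Il15ra was -0.58 ± 0.40 (SD, n = 3) in saline and -0.96 ± 0.31 (SD, n = 3) in LPS, and Il15ra minus Il2rg -3.13 ± 0.63 (SD, n = 3) and -3.13 ± 0.27 (SD, n = 3). Both pairs overlapped between groups (exact permutation p = 0.3 and 1, adjusted 0.35 and 1).

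Il17ra (chromosome 6, 120463247 to 120487559) encodes the chain common to most IL-17 receptors. Its values were 3.48, 3.75 and 3.94 in saline and 5.44, 4.93 and 4.67 in LPS. The groups were apart, and LPS 1 was highest. Il17ra rose by 1.29 (SE 0.21; limma adjusted p = 0.00136) or 2.44-fold, and passed in 15 of 16 settings, the exception being equal sums (0.53; limma adjusted p = 0.0539).

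Il17rc (chromosome 6, 113471427 to 113483140), its partner for IL-17A and IL-17F, had values of 3.32, 3.46 and 3.75 in saline and 3.28, 3.59 and 3.47 in LPS. The groups overlapped throughout. The difference of -0.06 (SE 0.16) did not pass (limma adjusted p = 0.760), although with equal sums it was -0.80 and passed as lower (limma adjusted p = 0.00398). Il17ra minus Il17rc was 0.15, 0.29 and 0.19 in saline and 2.16, 1.33 and 1.21 in LPS. The chains were thus at similar levels in each saline library, and Il17ra stood well above Il17rc in each LPS library. The shift of 1.35, the largest of the 7 pairs, reached the smallest p that the exact permutation test allows (0.1, adjusted 0.233) and was 1.06 to 1.53 in 10 alternative settings.

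**Figure D2:**
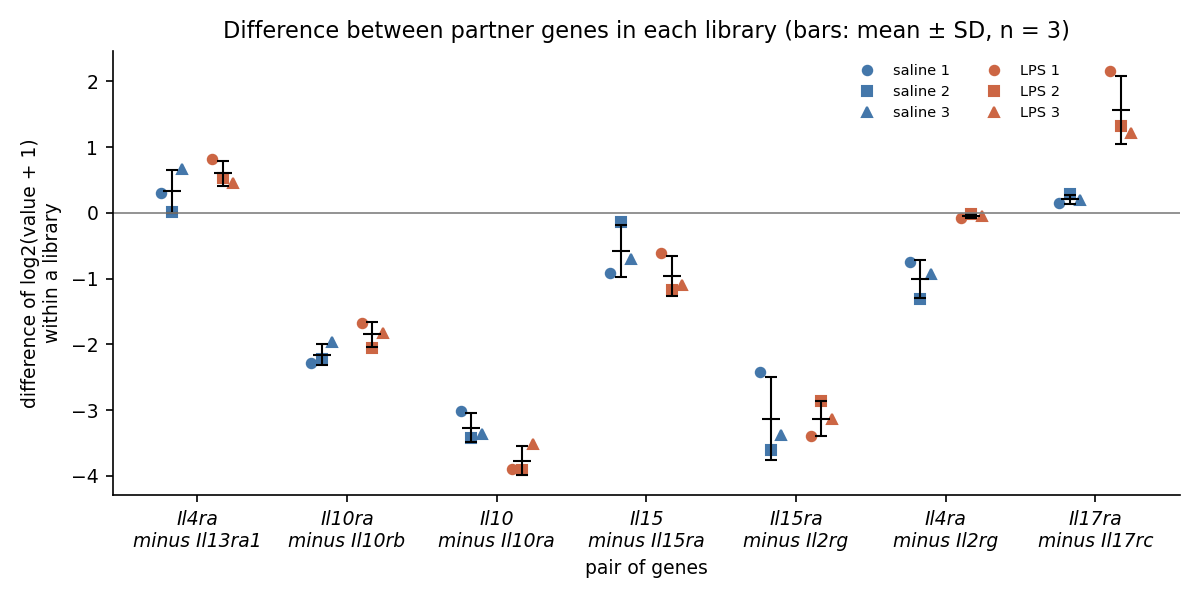
Difference of log2(value + 1) between 2 partner genes in the same library, for 7 pairs, in 3 saline (blue) and 3 LPS (orange) libraries, with mean ± SD in black. For Il4ra minus Il2rg the LPS libraries gather near 0 and above every saline library, and for Il17ra minus Il17rc they lie at 1.21 to 2.16 against 0.15 to 0.29.

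Levels per gene length can be put in order. In saline the highest mean log2 level was that of Il2rg (5.67 ± 0.41, SD, n = 3), followed by Il10rb (5.57 ± 0.15), Il4ra (4.67 ± 0.20), Il13ra1 (4.34 ± 0.30), Il17ra (3.72 ± 0.23), Il17rc (3.51 ± 0.22), Il10ra (3.41 ± 0.21), Il15ra (2.54 ± 0.22), Il15 (1.96 ± 0.29) and Il10 (0.14 ± 0.06). In LPS the order of mean log2 levels was Il10rb (6.74 ± 0.26, SD, n = 3), Il2rg (6.20 ± 0.35), Il4ra (6.16 ± 0.32), Il13ra1 (5.55 ± 0.17), Il17ra (5.01 ± 0.39), Il10ra (4.89 ± 0.33), Il17rc (3.45 ± 0.16), Il15ra (3.07 ± 0.13), Il15 (2.12 ± 0.42) and Il10 (1.11 ± 0.23). Neighbours whose ranges overlapped in saline were Il2rg and Il10rb, Il4ra and Il13ra1, Il17ra and Il17rc, and Il17rc and Il10ra. In LPS they were Il10rb and Il2rg, Il2rg and Il4ra, Il13ra1 and Il17ra, and Il17ra and Il10ra. Il17rc went from overlapping the ranges of Il17ra and Il10ra in saline to lying below both in LPS.

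The libraries also differed within groups. LPS 1 held the highest LPS value for 9 of the 10 genes, all but Il17rc, while it was the highest LPS library for 34.1% of the 10295 tested genes with a value in each library. LPS 1 also had the highest summed neutrophil markers, 25100 against 9680 in LPS 2 and 17900 in LPS 3, and the highest summed natural killer markers, 112 against 22.2 and 68.7; the part of either cell type in its high values was not tested. Saline 1 was the lowest saline library for 7 of the 10, against 30.9% of those tested genes. It also had the highest summed heart muscle markers, 1600 against 504 in saline 2 and 182 in saline 3. Its summed neutrophil (650 against 1950 and 694), T cell (30.3 against 39.8 and 46.8) and natural killer markers (33.1 against 52.9 and 34.2) were the lowest. Its B cell (200 against 197 and 305) and monocyte and macrophage sums (3850 against 5150 and 3560) were not. The part of any of these cell types in its low values was not tested. Without LPS 1 the differences of the 5 chains that rose at least 2-fold were 1.08 (Il10rb and Il17ra) to 1.30 (Il4ra and Il10ra), and each still passed.

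**Figure D3:**
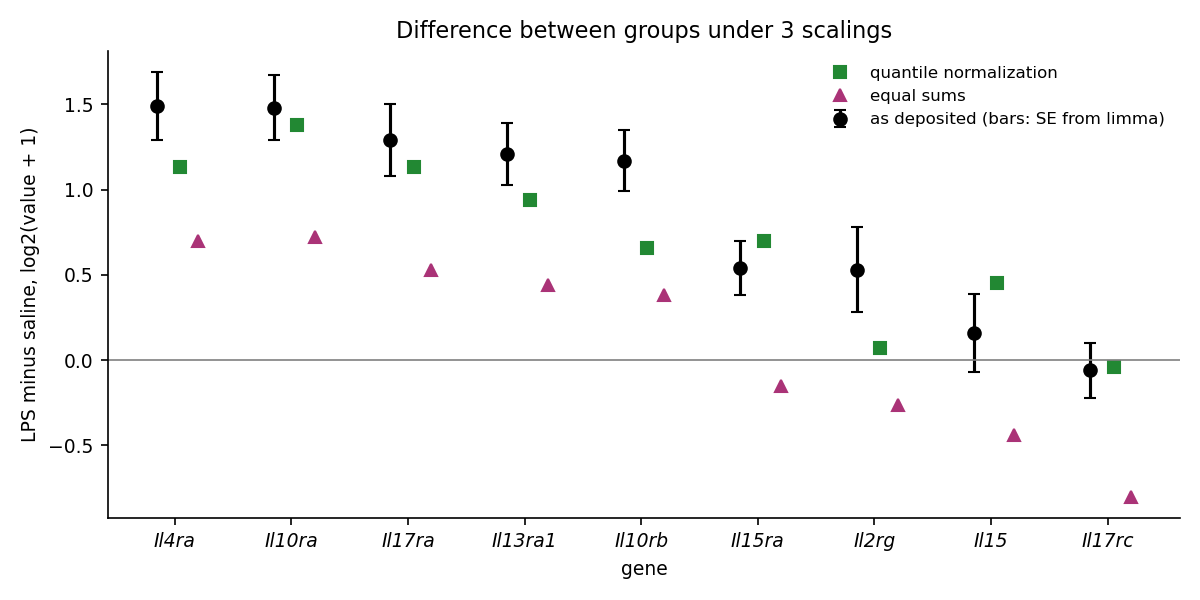
LPS minus saline on the log2(value + 1) scale for the 9 genes tested, as deposited (black, bars SE from limma), after quantile normalization (green squares) and with equal library sums (purple triangles). Il4ra, Il10ra, Il17ra, Il13ra1 and Il10rb stay above 0 under all 3 scalings, whereas Il15ra, Il2rg and Il15 fall below 0 with equal sums and Il17rc reaches -0.80.

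Among tested genes outside the set, the profile most like that of each chain that rose was found by the root mean square difference between values centred on each gene's mean over 6 libraries. Il10ra was closest to Adora2a (0.0428), Il15ra to 2310034G01Rik (0.0514), Il10rb to Orai1 (0.0538), Il13ra1 to Bin3 (0.0600), Il17ra to Rhog (0.0713) and Il4ra to Ada (0.0928). Each is the closest of 10286 genes over only 6 values. Genes of the set that did not pass had matches at 0.0442 (Il2rg to Itgb2), 0.0616 (Il17rc to Gart) and 0.105 (Il15 to Sgk3). A shared regulation was not tested. Within the set Il4ra and Il10ra were 0.105 apart on this measure and Il10ra and Il17ra 0.108.

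Most other ligands of these families were near 0 in whole lung. Of the ligands and decoy of IL-4 and IL-13, 0 of 3 passed the filter: Il4 was 0.13, 0.97 and 0.74 in saline and 0.19, 0.20 and 0.00 in LPS, and Il13ra2, the decoy receptor for IL-13, 0.08, 0.00 and 0.16 against 0.41, 0.76 and 0.53. Of 9 IL-17 family ligands and other receptors, 3 were tested, and Il17rd, a receptor chain that restrains IL-17 and fibroblast growth factor signalling, fell by 1.29 (SE 0.19; limma adjusted p = 0.000781). Il17d, an IL-17 family ligand, fell by 0.55 (SE 0.17; limma adjusted p = 0.0243), and Il17re did not pass. Il17a, the main ligand of the IL-17RA and IL-17RC pair, chosen after its values were seen, was not tested, with 0.16, 0.15 and 0.07 in saline and 0.68, 0.23 and 0.28 in LPS.

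Of 9 genes for other common gamma chain cytokines and receptors, 4 were tested. Il7, which sustains lymphocytes, fell by 0.49 (SE 0.14; limma adjusted p = 0.0160), and Il2rb, Il7r and Il21r did not pass. Il2rb, the chain that IL-15 shares with IL-2, differed by -0.26 (SE 0.20; limma adjusted p = 0.303). Of 9 genes for other IL-10 family ligands and receptors, 2 were tested, of which Il20rb, a chain of the receptors for IL-19, IL-20 and IL-24, rose by 1.34 (SE 0.17; limma adjusted p = 0.000410) and Ifnlr1 did not pass. Il20rb was under the filter's value in each saline library (0.71, 0.75 and 0.95). It was tested only through its LPS values, which favours a rise.

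Among 14 genes of the shared signalling steps, 6 rose, 1 fell and 7 did not pass, beside 25.7% called higher and 24.3% lower over all genes tested. Their median difference was 0.32, or -0.37 when library sums were made equal. The feedback inhibitor genes Socs3 (3.32, SE 0.46), Cish (1.65, SE 0.16) and Socs1 (1.32, SE 0.36) rose most, followed by Stat3 (0.80, SE 0.20), the factor used by the IL-10 receptor; their limma adjusted p-values were at most 0.0160, and Socs3, Socs1 and Stat3 have no value in LPS 3. With equal sums the difference of Stat3 was -0.01, that of Jak2 went from 0.79 to 0.02 and that of Traf6 turned from 0.47 to -0.26, these last genes being chosen after their values were seen. Stat6, the factor used by the IL-4 receptor chains, was 4.99 to 5.18 in saline and 5.18 and 5.02 in LPS 1 and LPS 2 (0.01, SE 0.17; limma adjusted p = 0.978); it was chosen after its values were seen. Traf3ip2, the adaptor that IL-17 receptors bind, likewise did not pass (0.23, SE 0.20; limma adjusted p = 0.367). Traf3ip2 and Traf6 also have no value in LPS 3.

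Genes known to respond to these cytokines, most of which also respond to LPS itself, were counted in 4 lists. The shares to set beside these counts are those over all genes tested, 25.7% called higher and 24.3% lower. These lists too were chosen with earlier results of these data known, so the counts are descriptive. Of 15 IL-17 response genes tested, 15 rose, with Cxcl2 (7.17, SE 0.66), Ccl20 (7.14, SE 0.43), Saa3 (6.66, SE 0.95) and Csf3 (5.95, SE 0.43) first. Csf3 was under the filter's value in each saline library (0.09, 0.32 and 0.36), so it was tested only through its LPS values. Of 10 IL-10 response genes, 8 rose and 0 fell, led by the IL-1 receptor antagonist gene Il1rn (4.06, SE 0.75), Socs3, Nfil3 (2.71, SE 0.24) and Zfp36 (2.19, SE 0.29), which encodes an mRNA decay factor. Zfp36, like Socs3, has no value in LPS 3. Of 11 IL-4 and IL-13 response genes tested, 6 rose and 2 fell. The arginase gene Arg1 (3.90, SE 0.35), the chemokine gene Ccl17 (2.18, SE 0.38) and Retnla (1.74, SE 0.59), which encodes a secreted resistin-like protein, rose, while the macrophage lectin gene Mgl2 (-2.99, SE 0.19) fell. Of 9 IL-15 response and natural killer genes tested, 0 passed by limma in either direction, and the most abundant, Gzma and Nkg7, gave 0.59 (SE 0.51; limma adjusted p = 0.349) and 0.31 (SE 0.27; limma adjusted p = 0.361). The largest limma adjusted p among the genes named as risen or fallen in these 4 lists was 0.0349 (Retnla). Median differences were 4.70 for the IL-17, 1.91 for the IL-10, 0.95 for the IL-4 and IL-13 and 0.12 for the IL-15 list, beside 0.02 over all genes tested. With equal sums they were 4.07, 1.16, 0.20 and -0.49, beside -0.68 over all genes, and Chil3, a chitinase-like gene counted among the IL-4 and IL-13 response genes that rose, turned from 0.55 to -0.25.

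**Figure D4:**
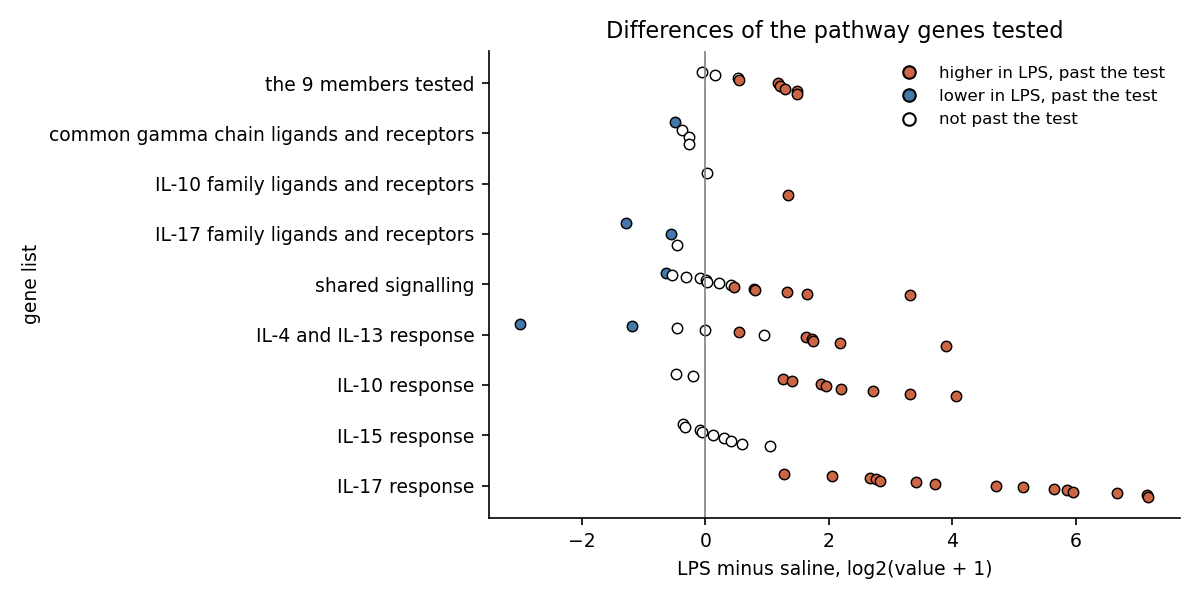
LPS minus saline on the log2(value + 1) scale for each gene tested (points), by list; orange points passed the test as higher, blue as lower and white did not pass. The IL-17 response list lies to the right of 0 throughout, and every point of the IL-15 response list is white.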

How the data were processed

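The authors deposited 1 table per library, with a gene symbol and a value on a log2 scale; the unit was read from the values. TopHat and the mm10 build are named in the submitters' processing notes; counting tool, strand setting and scaling were not given in the sources used here. A directional kit made the libraries, per the labels' protocols. The table of LPS 3 ends early, so 4484 genes (19.3%), none of the 10 described, lack a value there. Saline tables hold 1505 to 1936 values above 0 but under 0.01 against 11 to 24 for LPS. The tables of the groups may therefore have been made differently, which no source states and which cannot be told apart from treatment.

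limma 3.58.1 (R 4.3.3), with a variance trend and no block, compared LPS with saline in genes with a value of at least 1 before the log in at least 3 libraries: 13116 genes, of which 10295 had 6 values and 2821 had 5. P-values were adjusted by Benjamini-Hochberg over all of them, with a threshold of 0.05; the script was tested on simulated data. Partner genes were compared by an exact permutation test. Positions are from GENCODE vM21. Il10rb and Il2rg share 569 and 728 exon bases with annotated genes on their strand (Gm21970 and Gm20489), and Il4ra 571 with Gm44876 on the other, whose reads could not be told apart here.

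The genes and lists were chosen with earlier results of these data known. The rule for other named genes took, in each list, up to 4 genes past the threshold with the largest difference, or where none passed the 2 with the highest mean. Alternatives were other filters, scalings, pseudocounts, thresholds and variance models, a replicate block, and leaving out libraries.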

Additional observations from a re-analysis of the deposited data

How the results depend on the processing

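Of 143 values of the 9 genes tested under the alternatives, 134 kept their side of the threshold; 7 calls ended (Il15ra 5 times, Il10rb and Il17ra with equal sums), Il17rc passed as lower with equal sums and Il15ra reversed there (-0.15). The cause was not tested. With equal sums the genes of the set called higher went from 6 to 3 and those called lower from 0 to 1, and over all genes 798 were called higher and 8343 lower, against 3377 and 3188. A mean of at least 5 left 9304 genes tested, of which 2988 were called higher and 1752 lower. A threshold of 0.01 left 2033 higher and 2004 lower. With each library left out in turn, 5 to 6 genes of the set were higher and 0 lower, and over all genes 2461 to 3660 higher and 2440 to 3436 lower. Without saline 2 and LPS 3 together, a choice made after seeing the data, 5 genes of the set were higher and 0 lower.

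Within-library differences of partner genes moved by more than the replicate SD in these cases. Il10 minus Il10ra became 1.10 with a pseudocount of 0.1, -0.92 with 5, -0.19 with quantile normalization and 0.03 with equal sums. Il10ra minus Il10rb became 0.10 with a pseudocount of 5 and 0.71 with quantile normalization. Leaving out 1 library at a time gave 0.79 to 1.08 for Il4ra minus Il2rg and 1.06 to 1.53 for Il17ra minus Il17rc.

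Same-numbered libraries did not deviate together (correlations of -0.234, -0.0776 and -0.252 over 10295 genes), which gave no sign of a pairing by number. With 3 libraries a group, whose deviations from the group mean depend on each other, these correlations cannot exclude one. With the replicate block 6 genes of the set were higher and 0 lower, and over all genes 2793 higher and 2624 lower. Low values limit Il10, Il15 and most ligands.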
